A study of Homo sapiens with 6 samples.

Results

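The 9 genes described here move glutamate and its relatives across membranes or convert glutamate inside the cell. They were taken by symbol from a table of 61806 genes, and each symbol matched 1 gene. They are the glutamate transporters SLC1A1, SLC1A2 and SLC1A3, the neutral amino acid exchangers SLC1A4 and SLC1A5, the cystine and glutamate exchanger SLC7A11 with its partner chain SLC3A2, and the enzymes GLUL and GLUD1. Glutamate receptor genes were not included. RNA sequencing was done on U87-MG, an established human cell line grown from a glioblastoma. There were 3 libraries of the negative control (NC), whose genotype is given as wildtype, and 3 libraries labelled GRIK1 siRNA, whose genotype is given as GRIK1 knockdown and which are called siRNA-labelled here. GRIK1 encodes a kainate-type glutamate receptor subunit. The labels name an siRNA, the description of the series names an shRNA, and neither says whether the numbers 1 to 3 are separate cultures or different siRNA sequences, so the p-values measure only the spread between these libraries.

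Glutamate is the main excitatory transmitter of the brain, and astrocytes clear it from the synapse through sodium-driven carriers, mainly the proteins of SLC1A3 and SLC1A2. Astrocytes then turn it into glutamine with glutamine synthetase, the product of GLUL. In many gliomas these carriers are low and the exchanger built from SLC7A11 and SLC3A2 is used, which exports glutamate in return for cystine, the raw material of glutathione. SLC1A5 brings in glutamine, and glutamate dehydrogenase, the product of GLUD1, passes glutamate carbon to the citric acid cycle.

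The libraries held between 11099909 and 14006968 counted reads. NC library 3 stood apart. Across the tested genes, its log2 CPM correlated at 0.964 and 0.968 with the other NC libraries, which correlated at 0.990 with each other. NC library 3 lay outside the range of the other 5 libraries for 71.4% of all tested genes and for 5 of the 8 tested members, so the fitted results are given with and without it. Ribosomal protein genes took 8.45% of the counts of NC library 3 and between 4.35% and 4.99% in the other libraries. GRIK1, the targeted gene, had counts of 18, 9 and 8 in NC libraries 1 to 3 and 15, 20 and 20 in the siRNA-labelled libraries 1 to 3. Its level was thus no lower where the label gives a knockdown (difference 0.12 on log2(FPKM + 1), two-sided exact permutation test p = 0.4, where 3 against 3 libraries cannot give less than 0.1), so that group is called by its label throughout. Of the 12 astrocyte and glioma markers examined, 6 had a mean under 0.5 FPKM. VIM lay between 825 and 1076 FPKM in each library, while AQP4 and ALDH1L1 were listed at 0. Markers of microglia and other leukocytes summed to between 0.92 and 1.31 FPKM in any library, those of oligodendrocytes to between 0.57 and 1.3 and those of endothelium to between 1.59 and 2.37.

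The members spanned a wide range of levels. Here and below a level is in FPKM, the count scaled to the exonic size of the gene and to the total count of the library. SLC3A2 was highest, with 112, 114 and 50.7 FPKM in NC libraries 1 to 3, and 98.2% of the tested genes had a lower mean over the 6 libraries. SLC1A5 followed with a median of 41.4 FPKM in NC, and GLUD1 with 10.7. These 3 did not overlap with each other or with any other member in either group. SLC1A4, GLUL and SLC7A11 came next, with NC medians of 4.99, 5.39 and 3.99 FPKM, and in NC the range of SLC1A4 (3.22 to 5.67 FPKM) overlapped those of GLUL (4.37 to 5.70) and SLC7A11 (3.70 to 4.32), which did not overlap each other. In the siRNA-labelled libraries, SLC1A4 (6.84 to 6.92 FPKM) lay above GLUL (4.61 to 5.56), and GLUL lay just above SLC7A11 (4.12 to 4.6). SLC1A3 and SLC1A1 were lower still (SLC1A3 in NC overlapped only SLC1A4 of the members above it), and their order differed between the groups. In NC, SLC1A3 had a median of 3.46 FPKM and SLC1A1 of 2.09, with no overlap. In the siRNA-labelled libraries the medians were 2.14 and 3.07 FPKM, again with no overlap. SLC1A2 was lowest, at or under 0.15 FPKM in each library. The exonic sizes of SLC1A2 (22800 bases) and SLC1A3 (21227 bases) in the table count the exons of each annotated form together, and long rare exons lower an FPKM, so the order between genes depends on these sizes while a comparison of one gene between libraries does not.

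**Figure D1:**
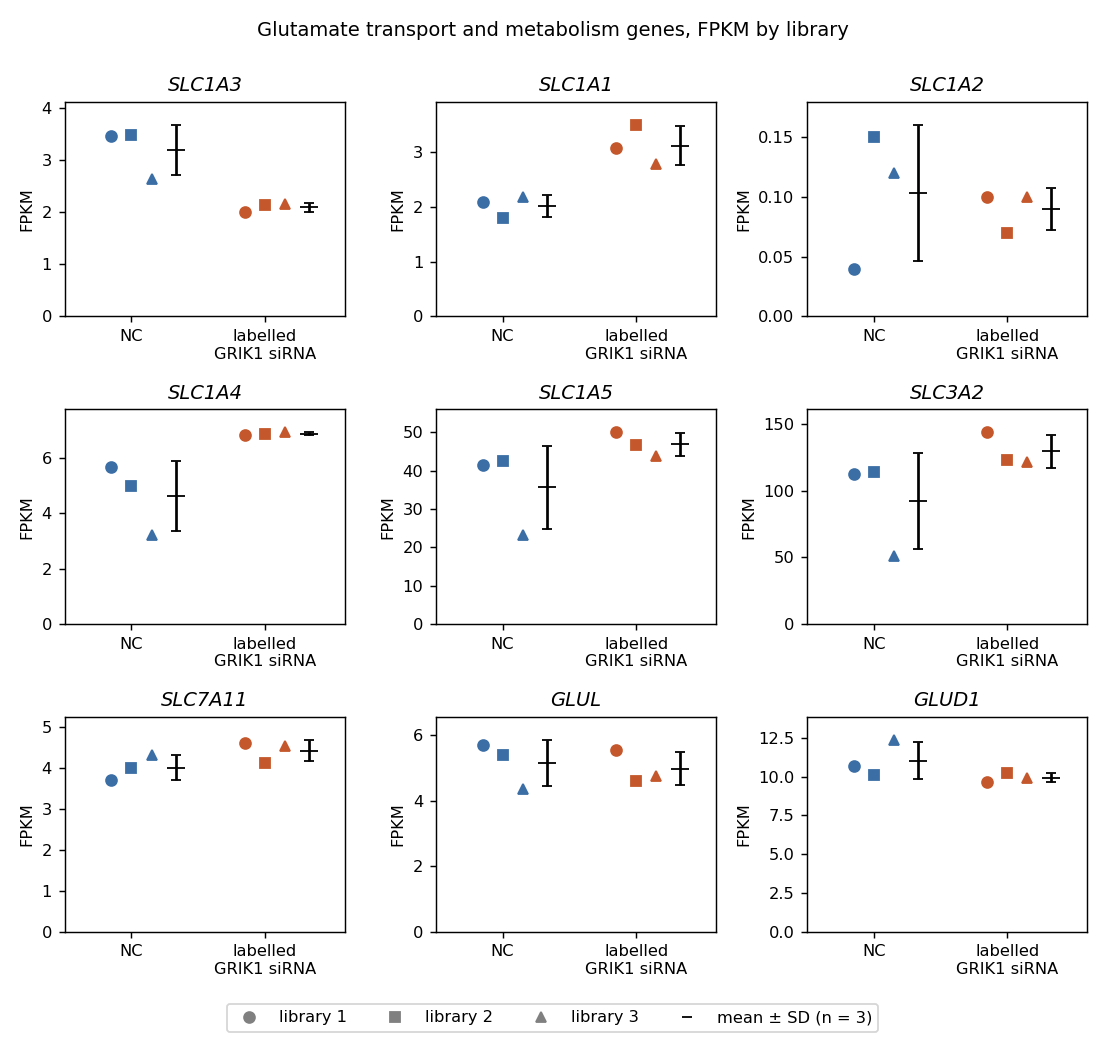
FPKM (vertical axes, from 0) of the 9 genes in each of the 3 NC libraries (blue) and the 3 siRNA-labelled libraries (orange). The marker shape gives the library number, and the bars give the mean and SD of each group. SLC1A3 is lower and SLC1A1 higher in each siRNA-labelled library than in any NC library, and the triangle of NC library 3 lies far below the others for SLC1A5 and SLC3A2.

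Counts were compared across all tested genes with the quasi-likelihood test of edgeR, with Benjamini-Hochberg adjustment, and a gene with an adjusted p under 0.05 was called. A mean of 0.5 FPKM or more was required. Of the 15870 genes that met it, 490 (3.09%) were called, 235 (1.48%) of them lower in the siRNA-labelled libraries and 255 (1.61%) higher. The higher share of the calls was 52.0%, against 63.0% when libraries were scaled to total counts alone and 65.6% in limma-trend on log2(FPKM + 1). Of the 8 members that passed the filter, 1 was called, SLC1A3, which fell. Its absolute log2 fold change was below 1, a size that 224 (1.41%) of the tested genes reached together with the adjusted p. Without NC library 3, 5591 (35.2%) of the tested genes were called, 2909 (18.3%) lower and 2682 (16.9%) higher. In that comparison 4 of the 8 members were called. SLC1A3 fell, and SLC1A1, SLC1A4 and SLC3A2 rose. A share of 4 in 8 is not far from that background. The median log2 fold change of the 8 members was 0.19, or 0.15 when NC library 3 was left out, against -0.017 and 0.0071 over all tested genes.

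**Figure D2:**
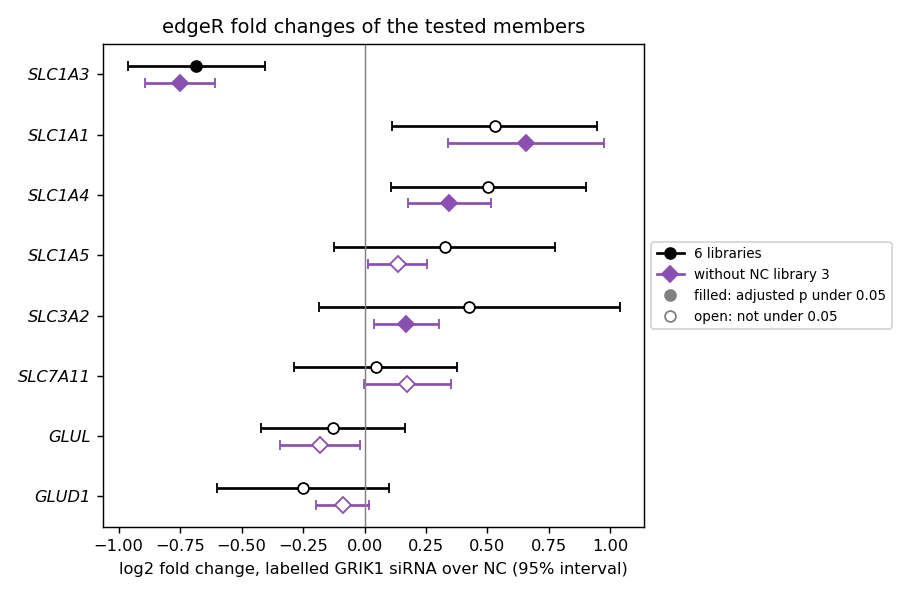
Log2 fold change (horizontal axis, siRNA-labelled over NC) of the 8 tested members, with the 95% interval from edgeR, for all 6 libraries (black circles) and without NC library 3 (purple diamonds). Filled symbols have an adjusted p under 0.05. SLC1A3 is filled in both, at -0.68 and -0.75, and SLC1A1, SLC1A4 and SLC3A2 are filled only without NC library 3.

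SLC1A3 encodes EAAT1, also known as GLAST, the glutamate carrier of astrocytes and radial glia (ENSG00000079215, chromosome 5 from 36596588 to 36688334, plus strand, GRCh38). Its levels were 3.46, 3.48 and 2.63 FPKM in NC libraries 1 to 3 and 2.0, 2.14 and 2.15 FPKM in the siRNA-labelled libraries. The 3 NC libraries all lay above the 3 others, and NC library 3 was the NC library nearest to them. The means were 3.19 ± 0.485 and 2.10 ± 0.0839 FPKM (SD, n = 3 each). The log2 fold change was -0.68 (standard error 0.12, 95% interval -0.96 to -0.40, adjusted p = 0.0378 from edgeR), which is 0.622 of the NC level. With NC library 3 left out it was -0.75 (standard error 0.067, adjusted p = 1.85e-07 from edgeR). The call rested on all of the other libraries. When any 1 of those 5 was left out, the log2 fold change lay between -0.70 and -0.64, with an adjusted p between 0.0810 and 0.229 and an unadjusted p between 0.00276 and 0.00487 in edgeR. In those 5 fits 0 of all tested genes were called, while between 2238 and 4434 had an unadjusted p under 0.05. SLC1A3 was also lower but not called when libraries were scaled to total counts alone (-0.60, adjusted p = 0.0692 from edgeR) and in limma-trend (-0.43 on log2(FPKM + 1), adjusted p = 0.0993). The 12 astrocyte and glioma markers summed to between 957 and 1245 FPKM in NC and between 1197 and 1230 FPKM in the siRNA-labelled libraries, and of the 6 tested 1 was called, GJA1, which rose (log2 fold change 0.54). VIM made up most of this sum. Of the 6 tested, 3 had a log2 fold change above 0, and the median was 0.0009. Without NC library 3, 2 of the 6 were above 0, the median was -0.072, and 1 was called higher and 1 lower. GFAP, the classic astrocyte marker, was below the filter, with counts of 13, 11 and 8 in NC and 39, 36 and 38 in the siRNA-labelled libraries. Without a filter, edgeR called GFAP as higher (log2 fold change 1.61, adjusted p = 0.0109), among 1403 called of 34080 genes. The part of these markers in the SLC1A3 values was not tested. In a bulk library, fewer cells that express a gene and less RNA per cell cannot be told apart. Genes ENSG00000250155 and ENSG00000274441 overlap SLC1A3 on the opposite strand and had at most 10 counts in any library, against at least 525 for SLC1A3.

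The sequence before a start of SLC1A3 is shown because this was the member that fell, and because the window overlaps no exon annotated in GENCODE 29. It holds the 250 bases before the start that coincides with the first base of the gene in the table, at chr5:36596338-36596587 of GRCh38.p14, plus strand, from RefSeq. Capitals mark the letters TGATGNAA, the core that ATF4 and its partners bind in amino acid response elements, and the GC box GGGCGG, which appears here on the other strand.
SLC1A3: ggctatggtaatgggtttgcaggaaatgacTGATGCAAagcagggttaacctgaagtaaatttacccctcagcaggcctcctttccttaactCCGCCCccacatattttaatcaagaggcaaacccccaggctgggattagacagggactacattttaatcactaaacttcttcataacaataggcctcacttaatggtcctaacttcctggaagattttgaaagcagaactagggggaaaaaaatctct

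The printed window was 43.2% G or C with 1 CpG, and the windows before the other starts of SLC1A3 in RefSeq were 47.2% and 46.4%, where the median over 35116 RefSeq promoters was 58.0% for the same 250 bases. The printed window held TGATGNAA once, at positions -220 to -213 from the start, and 1 GC box. Both strands were searched, and TGATGNAA occurred in 3.14% and GGGCGG in 42.6% of all promoters of this length. The windows before the other starts of SLC1A3 held neither, and counts per gene do not show which start was used. The search also covered the antioxidant response (NRF2) element, the E-box and the TATA box. The NRF2 element, found in 10.9% of all promoters, occurred before the SLC1A3 start at 36606606 and before starts of SLC1A5 and SLC3A2. The E-box, found in 6.34% of all promoters, occurred before 1 start of SLC1A5. The ATF4 letters occurred before 1 start of SLC1A5 too, at positions -97 to -90. Each of these windows of SLC1A5, and those of SLC1A3 and SLC3A2 with the NRF2 element, overlaps an annotated exon of the same gene. The TATA box, found in 10.7% of all promoters, occurred before no start of the members searched. GC boxes occurred before at least 1 start of each other member searched. Of the 9 members, SLC1A2 and SLC7A11 are named without a promoter here.

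SLC1A1 encodes EAAT3, also known as EAAC1, a carrier of glutamate and cysteine found mainly in neurons (ENSG00000106688, chromosome 9 from 4490468 to 4587469, plus strand). Its levels were 2.09, 1.79 and 2.17 FPKM in the NC libraries and 3.07, 3.49 and 2.78 FPKM in the siRNA-labelled libraries. The groups did not overlap. The log2 fold change was 0.53 (95% interval 0.11 to 0.95, adjusted p = 0.133 from edgeR), and it was not called with all 6 libraries. Without NC library 3 it was 0.66 (95% interval 0.34 to 0.97, adjusted p = 0.00240 from edgeR), and SLC1A1 was called. The 6 neuron markers examined summed to between 5.13 and 5.99 FPKM in NC and between 6.02 and 6.33 FPKM in the siRNA-labelled libraries, and 0 of the 4 tested were called (2 had an unadjusted p under 0.05 in edgeR, and DESeq2 called 1). Without NC library 3, 1 of these 4 was called, as lower, while 3 of the 4 had a log2 fold change above 0. The part of these markers in the SLC1A1 values was not tested. SPATA6L overlaps SLC1A1 on the opposite strand and had counts of 100, 90 and 58 in NC and 93, 117 and 114 in the others, against 92, 79 and 121 and then 151, 175 and 146 for SLC1A1. The sources used here do not give the strand setting of the counting, so reads of this pair may be mixed.

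SLC1A2 encodes EAAT2, also known as GLT-1, the main glutamate carrier of mature astrocytes (ENSG00000110436, chromosome 11 from 35251205 to 35420063, minus strand). Its counts were 11, 39 and 39 in NC and 27, 21 and 29 in the siRNA-labelled libraries, and it did not pass the filter. The groups overlapped. The summed counts, 89 and 77, scaled to the total counts, gave a ratio of 0.820 and the exact 95% interval, 0.597 to 1.13, allows for counting error alone. SLC1A6 and SLC1A7, the other glutamate carriers of the family, had 0 counts in each library, where 3 counts, the upper limit that a count of 0 allows, would be between 0.214 and 0.270 CPM.

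The ratio of SLC1A3 to SLC1A1 within a library does not depend on how libraries are scaled to each other. It was 1.66, 1.94 and 1.21 in NC libraries 1 to 3 and 0.651, 0.613 and 0.773 in the siRNA-labelled libraries. The ratio was above 1 in each NC library and below 1 in each of the others, and it was chosen after the values were seen. Its position against 1 depends on the exonic sizes, 21227 bases for SLC1A3 and 3974 bases for SLC1A1. In counts SLC1A3 was the higher in each library, with at least 525 against at most 175 for SLC1A1. The sum of SLC1A1, SLC1A2 and SLC1A3 differed less. It was 5.59, 5.42 and 4.92 FPKM in NC and 5.17, 5.70 and 5.03 FPKM in the siRNA-labelled libraries, and the groups overlapped. SLC1A3 made up between 53.5% and 64.2% of this sum in NC and between 37.5% and 42.7% in the others. The sum and these shares depend on the exonic sizes too.

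**Figure D3:**
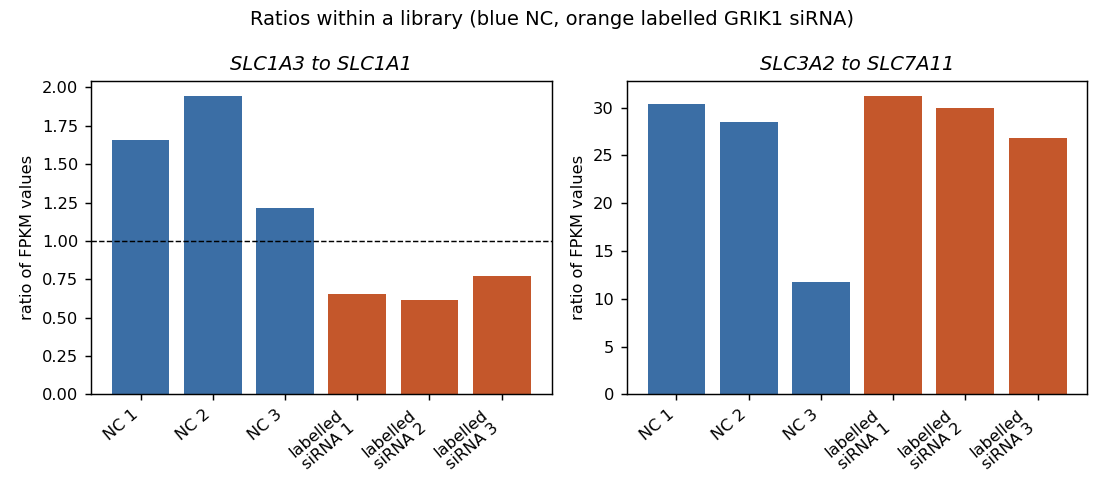
Ratio of FPKM values within each library (vertical axes, from 0) of SLC1A3 to SLC1A1 (left, dashed line at 1) and of SLC3A2 to SLC7A11 (right), for the NC libraries (blue) and the siRNA-labelled libraries (orange). The left ratio is above 1 in each NC library and below 1 in each of the others, and the right ratio is set apart in NC library 3 alone, at 11.7. The position of a ratio against 1 depends on the exonic sizes of both genes.

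SLC1A4 encodes ASCT1, an exchanger of serine, alanine and cysteine (ENSG00000115902, chromosome 2 from 64988477 to 65023865, plus strand). Its levels were 5.67, 4.99 and 3.22 FPKM in NC and 6.84, 6.88 and 6.92 FPKM in the siRNA-labelled libraries. The groups did not overlap, and the spread of the NC libraries (SD 1.27 FPKM) came mostly from NC library 3. The log2 fold change was 0.50 (95% interval 0.11 to 0.90, adjusted p = 0.133 from edgeR). It was smaller, at 0.34, with NC library 3 left out, and SLC1A4 was called (95% interval 0.18 to 0.51, adjusted p = 0.00269 from edgeR). LINC02245 overlaps it on the opposite strand with at most 14 counts in any library.

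SLC1A5 encodes ASCT2, an exchanger that brings glutamine into many tumor cells (ENSG00000105281, chromosome 19 from 46774883 to 46788594, minus strand). Its levels were 41.4, 42.4 and 23.2 FPKM in NC and 49.97, 46.8 and 43.9 FPKM in the siRNA-labelled libraries. No library overlapped between the groups, yet the gap was narrow for NC libraries 1 and 2 and wide for NC library 3. SLC1A5 was not called with all 6 libraries (log2 fold change 0.33, 95% interval -0.12 to 0.78, adjusted p = 0.322 from edgeR). It was not called either when NC library 3 was left out, with a log2 fold change of 0.14 (95% interval 0.016 to 0.25, adjusted p = 0.0745 from edgeR). Within the summed FPKM of SLC1A1 to SLC1A5, SLC1A5 held between 78.6% and 80.6% in 5 libraries and 74.0% in NC library 3.

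SLC3A2 encodes the heavy chain 4F2hc, also known as CD98, which carries SLC7A11 and several other light chains to the cell surface (ENSG00000168003, chromosome 11 from 62856004 to 62888880, plus strand). Its levels were 112, 114 and 50.7 FPKM in NC and 144, 123 and 121 FPKM in the siRNA-labelled libraries. The groups did not overlap. NC library 3 was at 0.509 of the mean of the other NC libraries in normalized CPM, and 15.03% of the tested genes were lower by this measure. The log2 fold change was 0.43 with all 6 libraries (95% interval -0.19 to 1.04, adjusted p = 0.339 from edgeR) and 0.17 without NC library 3 (95% interval 0.039 to 0.30, adjusted p = 0.0418 from edgeR), so SLC3A2 was called only without that library. That call was narrow. With the siRNA-labelled library 1 also left out, the log2 fold change was 0.090 and the adjusted p was 0.0676 from edgeR.

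SLC7A11 encodes xCT, the light chain that exchanges cystine for glutamate (ENSG00000151012, chromosome 4 from 138164097 to 138242349, minus strand). Its levels were 3.70, 3.99 and 4.32 FPKM in NC and 4.6, 4.12 and 4.53 FPKM in the siRNA-labelled libraries. The groups overlapped, with NC library 3 as the highest NC library. SLC7A11 was not called with all 6 libraries (log2 fold change 0.045, 95% interval -0.29 to 0.38, adjusted p = 0.860 from edgeR) or without NC library 3 (0.17, 95% interval -0.0037 to 0.35, adjusted p = 0.123 from edgeR). SLC7A11-AS1, on the opposite strand, had at most 7 counts in any library. SLC3A2 stood at 30.3, 28.5 and 11.7 times the FPKM of SLC7A11 in NC libraries 1 to 3, and at 31.2, 29.9 and 26.8 times in the others. This ratio separated NC library 3 from the other 5 libraries and did not separate the groups.

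GLUL encodes glutamine synthetase, which joins ammonia to glutamate (ENSG00000135821, chromosome 1 from 182378098 to 182392206, minus strand). Its levels were 5.70, 5.39 and 4.37 FPKM in NC and 5.56, 4.61 and 4.77 FPKM in the siRNA-labelled libraries. The groups overlapped, and GLUL was not called with all 6 libraries (log2 fold change -0.13, 95% interval -0.42 to 0.16, adjusted p = 0.539 from edgeR). Without NC library 3 the log2 fold change was -0.18 (95% interval -0.34 to -0.020, adjusted p = 0.0766 from edgeR). The siRNA-labelled library 1 was the one nearest to NC, and with it also left out GLUL had a log2 fold change of -0.26 and an adjusted p of 0.00320 from edgeR. That fit was chosen after the values were seen, and leaving out the nearest library widens the difference by itself. With the siRNA-labelled library 2 or 3 left out instead, GLUL was at -0.13 and -0.16 and was not called (adjusted p = 0.280 and 0.211 from edgeR). The pseudogenes GLULP3, GLULP4, GLULP5 and GLULP6 had at most 1 count in any library.

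GLUD1 encodes the mitochondrial glutamate dehydrogenase (ENSG00000148672, chromosome 10 from 87050202 to 87094843, minus strand). Its levels were 10.7, 10.1 and 12.3 FPKM in NC and 9.65, 10.2 and 9.88 FPKM in the siRNA-labelled libraries. In FPKM the groups overlapped, and in normalized CPM they did not, by a small gap between 144 in NC library 2 and 143 in the siRNA-labelled library 2. GLUD1 was not called with all 6 libraries (log2 fold change -0.25, 95% interval -0.60 to 0.10, adjusted p = 0.329 from edgeR) or without NC library 3 (-0.089, 95% interval -0.20 to 0.020, adjusted p = 0.199 from edgeR). SHLD2, which overlaps GLUD1 on the opposite strand, had counts of 518, 512 and 1049 in NC, and GLUD1 had 1690, 1601 and 2469. Both were highest in NC library 3. The pseudogene GLUD1P3 had counts of 46, 36 and 40 in NC and 66, 88 and 81 in the siRNA-labelled libraries, and its reads could be shared with GLUD1. The related gene GLUD2 had at most 3 counts in any library.

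In normalized CPM, 6 of the 8 tested members did not overlap between the groups, SLC1A1, SLC1A3, SLC1A4, SLC1A5, SLC3A2 and GLUD1, where 38.5% of all tested genes did not overlap. Of these members 4 were higher and 2 lower in the siRNA-labelled libraries, against 19.4% and 19.0% of all tested genes. With NC library 3 left out it was 7 of 8, with SLC7A11 as the addition, against 56.5%. Then 5 were higher and 2 lower, against 28.0% and 28.5%. Set against the mean of NC libraries 1 and 2, NC library 3 and the siRNA-labelled libraries lay on opposite sides for SLC1A4, SLC1A5, SLC3A2 and GLUD1. For SLC1A1, SLC1A3, SLC7A11 and GLUL they lay on the same side. Of the 8 tested members, NC library 3 was the lowest of the 6 libraries for 3 (SLC1A4, SLC1A5 and SLC3A2) and the highest for 2 (SLC7A11 and GLUD1), where it was lowest for 35.8% and highest for 35.5% of all tested genes. What sets NC library 3 apart was not tested.

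**Figure D4:**
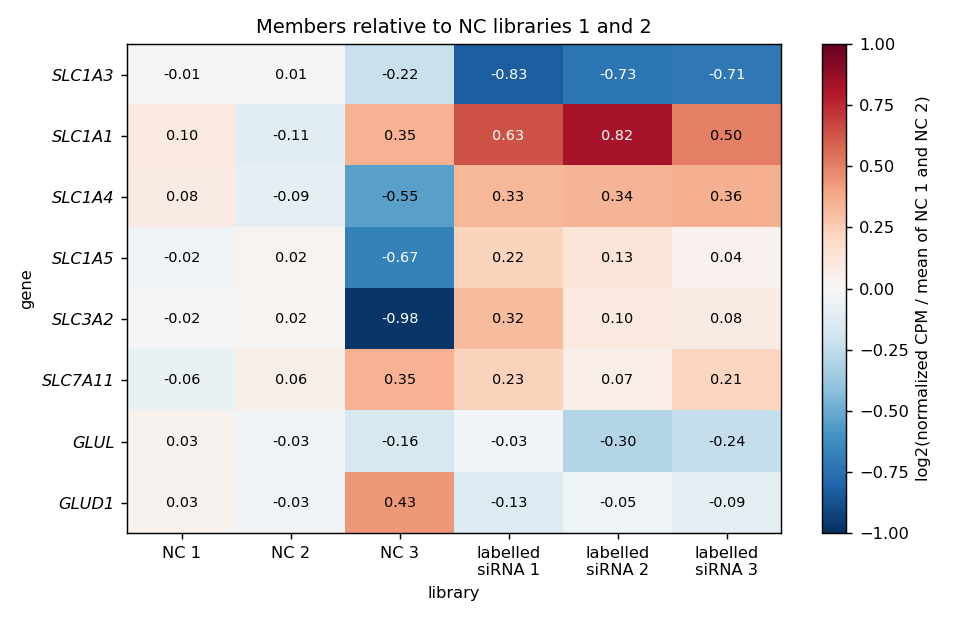
Log2 ratio of normalized CPM to the mean of NC libraries 1 and 2 (color, and the number in each cell) for the 8 tested members (vertical axis) in the 6 libraries (horizontal axis). SLC1A3 is between -0.83 and -0.71 and SLC1A1 between 0.50 and 0.82 in the siRNA-labelled libraries, while NC library 3 is at -0.98 for SLC3A2 and -0.67 for SLC1A5.

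Other genes of glutamate, glutamine and cystine handling were read from 6 lists, with 87 genes in all, of which 66 were tested. With all 6 libraries 4 of the 66 were called, GPT2 and ALDH18A1 as higher and GSR and SLC25A11 as lower, against 3.09% of all tested genes. These 4 were called again without NC library 3, among 31 of the 66, 13 higher and 18 lower, against 35.2%. The median log2 fold change of the 66 was 0.0061, or -0.027 when NC library 3 was left out.

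Of the 24 tested enzymes of glutamine and glutamate, 2 rose and 0 fell with all 6 libraries, against 1.61% and 1.48% of all tested genes. Without NC library 3 it was 6 and 5, against 16.9% and 18.3%. GPT2, the mitochondrial alanine aminotransferase, which uses glutamate to make alanine, had 7.38, 7.4 and 5.39 FPKM in NC and 11.99, 11.6 and 11.2 FPKM in the siRNA-labelled libraries (log2 fold change 0.71, standard error 0.12, adjusted p = 0.0378 from edgeR). ALDH18A1, which starts the path from glutamate to proline and ornithine, had 26.9, 26.4 and 16.2 FPKM in NC and 47.7, 47.9 and 43.4 FPKM in the others (log2 fold change 0.93, standard error 0.17, adjusted p = 0.0387 from edgeR). The groups did not overlap for either gene. With NC library 3 left out their log2 fold changes were 0.63 and 0.77. The most abundant enzymes of this list, PSAT1 and OAT, had log2 fold changes of 0.014 and -0.54, or 0.11 and -0.081 without NC library 3, and were called in neither fit. In normalized CPM, OAT in NC library 3 was at 2.11 times the mean of the other NC libraries.

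Of the 12 tested genes of glutathione synthesis and cystine use, 1 fell and 0 rose with all 6 libraries, against 1.48% and 1.61% of all tested genes. When NC library 3 was left out, 4 fell and 3 rose, against 18.3% and 16.9%. GSR, the reductase that regenerates glutathione, had 21.4, 20.7 and 29.5 FPKM in NC and 13.8, 11.9 and 11.5 FPKM in the siRNA-labelled libraries (log2 fold change -1.05, standard error 0.21, adjusted p = 0.0447 from edgeR). Its log2 fold change was -0.79 without NC library 3. GPX4, the peroxidase that spends glutathione on lipid peroxides and the most abundant gene of the list, had a log2 fold change of -0.76 and was not called with all 6 libraries (adjusted p = 0.0908 from edgeR), and it was called without NC library 3, at -0.48 (adjusted p = 4.35e-07 from edgeR). TXNRD1, the second most abundant, was called in neither fit, and its log2 fold change turned from -0.37 to 0.018 when NC library 3 was left out. GCLC and GCLM, the subunits of the enzyme that joins glutamate to cysteine, had log2 fold changes of 0.14 and 0.19 and were not called with all 6 libraries. Both were called as higher without NC library 3, at 0.23 and 0.28 (adjusted p = 0.00238 and 0.0106 from edgeR).

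The list of other glutamate and cystine carriers had 7 tested genes, among them SLC25A11, which carries neither glutamate nor cystine. With all 6 libraries, 1 of the 7, SLC25A11, fell and 0 rose, against the same 1.48% and 1.61%. When NC library 3 was left out, 3 fell and 1 rose, against 18.3% and 16.9%. SLC25A11, the mitochondrial carrier that exchanges oxoglutarate for malate, had 15.4, 14.4 and 17.5 FPKM in NC and 10.2, 9.39 and 8.61 FPKM in the siRNA-labelled libraries (log2 fold change -0.84, standard error 0.16, adjusted p = 0.0408 from edgeR), and its log2 fold change was -0.69 without NC library 3. SLC17A5, the next most abundant, had -0.29, or -0.038 without that library, and was called in neither fit. SLC17A6 and SLC17A8, which load glutamate into synaptic vesicles, had 0 counts in each library. SLC17A7, which does the same, had counts of 7, 2 and 4 in NC and 3, 2 and 8 in the siRNA-labelled libraries.

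None of the 6 tested carriers of glutamine and neutral amino acids, the 4 tested light chains that pair with SLC3A2 or the 13 proteins that act on the transporters or their genes was called in edgeR with all 6 libraries, where 1, 2 and 1 of them had an unadjusted p under 0.05 and DESeq2 called 1, 2 and 1. Without NC library 3, edgeR called 2, 2 and 5 of them. SLC38A2 and SLC38A1, glutamine carriers, had log2 fold changes of 0.055 and -0.11, which turned to -0.020 and 0.057 without NC library 3, and were called in neither fit. Over the light chains the log2 fold change had its median at 0.75, and all 4 were above 0. The median was 0.48 without NC library 3, with 3 of 4 above 0 and SLC7A7 at -0.077. SLC7A5, the leucine and glutamine exchanger known as LAT1, had 37.2, 34.6 and 17.7 FPKM in NC and 53.5, 50.7 and 50.4 FPKM in the others (log2 fold change 0.73). SLC7A6 had a log2 fold change of 0.78. Both were called as higher without NC library 3, with 0.50 and 0.55. In all 4 tested light chains, as in SLC3A2, NC library 3 was the lowest of the 6 libraries. ATF4, the amino acid response factor, and ARL6IP5, a binding partner of EAAT3, had log2 fold changes of 0.070 and -0.35 and were not called with all 6 libraries. Without NC library 3, ATF4 was called as higher at 0.28 (adjusted p = 0.000173 from edgeR) and ARL6IP5 as lower at -0.14 (adjusted p = 0.0434 from edgeR).

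**Figure D5:**
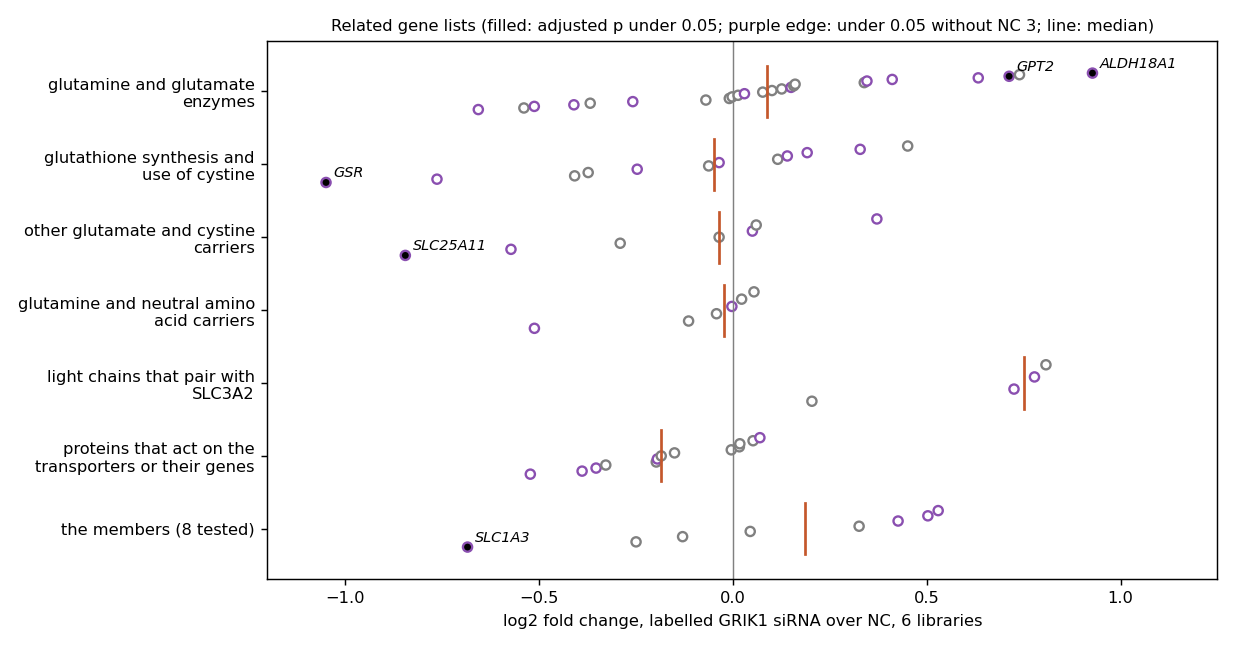
Log2 fold change with all 6 libraries (horizontal axis) of each tested gene of the 6 lists and of the 8 tested members (rows). Filled points have an adjusted p under 0.05 in edgeR, a purple edge marks an adjusted p under 0.05 without NC library 3, and the orange line is the median of the row. GSR, SLC25A11, ALDH18A1, GPT2 and SLC1A3 are the filled points.

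Each tested member was set beside the gene with the most similar profile over the 6 libraries, among 13028 other genes that reached a mean of 1 FPKM, by Pearson's r of log2 CPM. All 6 points share the same libraries and depth, and with so few points many genes reach a high r. For SLC1A3 the gene was ANKRD29 (r = 0.997), and 222 genes passed an r of 0.95. For SLC1A1 it was RNF216P1 (r = 0.993), with 57 genes past 0.95. For SLC1A4 it was ANKHD1, for SLC1A5 AMPD2, for SLC3A2 GDPD3 and for GLUD1 TCAIM, and these 4 members, which NC library 3 moved most, had between 929 and 1099 genes past 0.95. For SLC7A11 it was POLR2I and for GLUL GPS1, with 30 and 29 genes past 0.95.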

How the data were processed

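RNA of U87-MG cells was sequenced in 3 NC libraries and 3 libraries labelled GRIK1 siRNA, which were grouped by their labels alone. Per the labels, cutadapt 1.9.1, HISAT2 and HTSeq were used on GRCh38, while strand setting and annotation release are not given in the sources used here. The authors deposited whole-number read counts per gene without normalization, and FPKM values, which equal the count scaled to exonic size and total counts for 100% of the values (tolerance 0.0051). Of the columns of values, 0 were left unassigned. Total counts lay between 11099909 and 14006968 and set the precision of low genes.

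Genes whose mean reached 0.5 FPKM were tested on counts with edgeR 4.0.16 (quasi-likelihood test, TMM scaling, no covariate) in R 4.3.3, with Benjamini-Hochberg adjustment over all 15870 tested genes. The standard error is the absolute log2 fold change divided by the square root of F. Normalized CPM used the TMM library sizes, and log2 CPM a prior count of 2. DESeq2 1.42.0 and limma 3.58.1 (limma-trend on log2(FPKM + 1) and log2(FPKM + 0.1), a scale that understates changes of low genes) were alternatives, beside other scalings, filters, a replicate block and leaving out each library. Permutation tests used scipy 1.17.1. The tests were tried on simulated counts. No 2 libraries agreed within sampling noise, since the mean chi-square per gene was at least 2.36 in any pair.

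The members, the lists and the rule for named genes were chosen with earlier results of these data known. The rule takes GRIK1, all 9 members, genes that overlap or resemble them, per list the called genes (at most 4) and the 2 most abundant, and per tested member the gene with the most similar profile. GCLC, GCLM, SLC7A7, GJA1, VIM, AQP4, ALDH1L1, GFAP, SLC1A6, SLC1A7, SLC17A6, SLC17A7 and SLC17A8 were named after their values were seen. Promoter sequences are from RefSeq on GRCh38.p14 and were found for 7 of the 9 members.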

Additional observations from a re-analysis of the deposited data

How the results depend on the processing

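The depth limits SLC1A2, whose counts were at most 39 in any library, and the p-values rest on 3 libraries against 3. NC library 3 widened the spread of most genes. The number of called genes was 490 with all 6 libraries, 4 of the lists and 1 of the members. Leaving out 1 library gave between 0 and 5591 genes, 0 and 31 list genes, and 0 and 4 members, where the highest values came without NC library 3 and the lowest without any of the others. With total counts alone 0 members were called, and 311 of the 494 called genes (63.0%) were higher, against 52.0% with TMM. Without a filter 1403 genes and 8 list genes were called, and with DESeq2 1676 and 11. Limma-trend on log2(FPKM + 1) called 0 members and 2 list genes, and on log2(FPKM + 0.1) it called 280 genes, 0 members and 1 list gene, and the median over all tested genes was 0.089 there, against -0.017 in edgeR with TMM. With an absolute log2 fold change over 1 in addition, 224 genes, 0 members and 1 list gene were called. With the replicate number as a block, 0 genes, 0 members and 0 list genes were called, and 3324 genes had an unadjusted p under 0.05. The replicate block left SLC1A3 at -0.68 with an adjusted p of 0.112. The deviations of same-numbered libraries from their group means had correlations across genes of -0.0703, 0.0441 and -0.0425. NC library 3 lay apart for most genes and weighs on the deviations of all NC libraries. These correlations therefore cannot show whether same-numbered libraries were paired, and the labels give only the shared number.

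SLC1A3 was lower in each alternative. It was not called with total counts (-0.60), in limma-trend (-0.43, and -0.57 with the smaller pseudocount) or with the block. Over the fits that left out 1 library, the log2 fold change lay between -0.75 and -0.64 for SLC1A3, 0.43 and 0.66 for SLC1A1, 0.34 and 0.64 for SLC1A4, 0.14 and 0.45 for SLC1A5, 0.17 and 0.59 for SLC3A2, -0.21 and -0.075 for GLUL, -0.34 and -0.089 for GLUD1, and -0.039 and 0.17 for SLC7A11, which was below 0 only without NC library 1 (-0.039). SLC1A5, GLUL and GLUD1 kept their direction in each alternative and were called in none of those set at the start.

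The following were chosen after seeing the data, all without NC library 3. DESeq2 called 4210 genes, 24 list genes and 4 members, with SLC1A1 at 0.66, SLC1A4 at 0.35 and SLC3A2 at 0.17. Limma-trend on log2(FPKM + 1) called 4111 genes, 22 list genes and 3 members, with SLC1A1 at 0.48 and SLC1A4 at 0.32. Without a filter 5785 genes, 31 list genes and 5 members were called, with SLC1A1 at 0.63, SLC1A4 at 0.31, SLC3A2 at 0.14 and GLUL at -0.21. With the siRNA-labelled library 1, 2 or 3 also left out, 5997, 4624 and 4540 genes, 33, 26 and 23 list genes, and 4, 4 and 5 members were called. In that order SLC1A1 was at 0.67, 0.57 and 0.73 and SLC1A4 at 0.35, 0.34 and 0.34. SLC1A3 lay between -0.78 and -0.72, and SLC7A11 reached at most 0.22. SLC3A2 was called without library 2 (0.20) and library 3 (0.21) but not library 1 (0.090), SLC1A5 without library 3 (0.18) but not library 1 (0.088), and GLUL without library 1 (-0.26). The cause of these changes was not tested.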
